A study of Mus musculus with 6 samples.

Results

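PD-1, encoded by Pdcd1, is an inhibitory receptor that T cells put on their surface after antigen receptor stimulation. Its ligands PD-L1 (Cd274) and PD-L2 (Pdcd1lg2) recruit phosphatases to the receptor and dampen T cell receptor signalling. CD8 T cells that keep PD-1 usually carry other inhibitory receptors and the transcription factor TOX, whereas naive CD8 T cells carry Ccr7 and Il7r and circulate through lymph nodes. PD-1 positive CD8 T cells described here were barcodes of the sorted CD8 libraries that held at least 1 Pdcd1 UMI and 0 Ccr7 UMIs. They also held at least 500 detected genes, at most 20% mitochondrial UMIs and at least 1 UMI summed over Cd3d, Cd3e and Cd3g. The rule found 1842 such barcodes, 1711 in the control CD8 library and 131 in the IR CD8 library, out of 16098 barcodes with a Cd3 UMI and 54039 deposited barcodes in the series. They were compared with the other Cd3 barcodes of the same library, 7974 in control and 6282 in IR.

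Both libraries came from sorted CD45 and αβ T cell receptor positive kidney cells of male wild-type C57BL/6J mice aged 7 to 8 weeks. Control mice had normal kidneys. IR mice had both renal pedicles clamped for 30 min, and creatinine was measured at 24 h. CD4, CD8 and CD4-CD8- (DN) cells were sorted from each condition into 1 library per group, and no difference below has a replicate check or a p-value. Intervals are 95% intervals for counting error only. Levels are UMIs summed over barcodes and scaled to a common total (CPM), and ratios are log2 ratios of these sums on that scale.

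The control members had a median of 7301 UMIs per barcode and the other control barcodes 6874. In IR the medians were 1812 and 1828 UMIs. Summed over members, the control library gave 12122198 retained UMIs and the IR library 213906, so that 3 UMIs corresponded to 0.247 CPM and 14.0 CPM, respectively. The IR members could therefore be assessed for 2281 genes and the control members for 8870. Ribosomal protein genes took 19.8% of UMIs in control members and 32.2% in IR members, against 23.6% and 42.3% in the other barcodes. The control and IR libraries also carried different Cell Ranger versions in their headers, so condition and software version cannot be told apart. Of the members, 34 in control and 0 in IR shared their barcode with another library of the same condition.

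CD8 identity was clear in the members. Cd8a, the CD8 alpha chain, stood at 965 CPM in control members and 821 CPM in the other control barcodes, and at 524 and 402 CPM in IR. Cd8b1 stood at 1412 and 1330 CPM in control and at 1164 and 1120 CPM in IR. Cd4 had 3 UMIs in the control members and 0 in the IR members. The regulatory T cell factor Foxp3 had 0 UMIs in the members of both libraries. All 3 CD8 lineage markers were within 2-fold between members and other barcodes in both libraries.

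Pdcd1 itself was sparse. In the control library, 998 members held a single Pdcd1 UMI, 350 held 2 and 363 held 3 or more. In the IR library the numbers were 117, 12 and 2. The clause on Ccr7 removed 138 control and 15 IR barcodes that held both transcripts. These counts follow from the rule and describe the members, with most of them at the limit of 1 UMI.

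The other proposed marker genes were uneven. Tigit, a coinhibitory receptor for nectin-like ligands, was found in 25.8% (23.7 to 27.9) of control members and in 9.68% (9.04 to 10.4) of the other control barcodes. After each barcode was thinned to 1000 UMIs, the shares were 5.29% (4.27 to 6.47) and 1.96% (1.66 to 2.30), against 3.06% (0.636 to 8.69) of 98 barcodes without a Cd3 UMI, at a median of 7349 UMIs in members and 1319.5 UMIs in these before thinning. The interval of the latter contains both shares. Cd101, a surface glycoprotein of effector-memory and exhausted T cells, differed less, with 37.0 CPM in members and 29.0 CPM in other barcodes. At 1000 UMIs Cd101 was in 3.21% of control members, close to the 3.06% of barcodes without a Cd3 UMI, and could not be told apart from these at that depth. In IR members Tigit had 4 UMIs and Cd101 had 2 UMIs in all, so neither could be assessed there, and the label rests on Pdcd1 in the IR library.

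Members made up 17.7% (16.9 to 18.4) of Cd3 barcodes in control and 2.04% (1.71 to 2.42) in IR. At 1000 UMIs per barcode, 498 control and 160 IR barcodes were too shallow to enter. The Cd3 clause was applied again to the thinned counts, which left 8423 control and 5641 IR barcodes. Members were 4.86% (4.41 to 5.34) and 1.19% (0.922 to 1.51) of these. The difference between the libraries was thus smaller at equal depth, and the intervals did not overlap. By the same rule at 1000 UMIs, the share was 2.55% in control CD4 and 1.74% in control DN. It was 1.91% in IR CD4 and 1.51% in IR DN.

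In barcodes without a Cd3 UMI, a Pdcd1 UMI was found in 4.22% (1.71 to 8.50) of 166 control barcodes at a median of 1072 UMIs. In IR it was found in 1.21% (0.393 to 2.80) of 414 barcodes at a median of 1498.5 UMIs. At 1000 UMIs the share in these IR barcodes was 0.820% (0.169 to 2.38), an interval that contains the share of IR members. In these control barcodes it was 3.06% (0.636 to 8.69), which also contains the share of members. Among Cd3 barcodes with a Ccr7 UMI, 1.28% (0.805 to 1.93) in control and 0.209% (0.0680 to 0.488) in IR held a Pdcd1 UMI at that depth, both below the share in Cd3 barcodes without Ccr7, which was 5.52% and 1.71%.

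Within bins of barcode depth, the order of the libraries was not the same throughout. Among barcodes of 500 to 1000 UMIs, members were 5.62% (28 of 498) in control and 6.25% (10 of 160) in IR. Between 1000 and 2000 UMIs the shares were 7.49% and 1.75%, and between 2000 and 4000 UMIs they were 10.9% and 1.71%. Between 4000 and 8000 UMIs they were 22.6% and 4.82%. Between 8000 and 16000 UMIs they were 17.9% and 18.2% (6 of 33), with an IR interval of 6.98 to 35.5. The control share was higher in the 3 bins between 1000 and 8000 UMIs, and the intervals overlapped in the shallowest bin and between 8000 and 16000 UMIs.

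**Figure D1:**
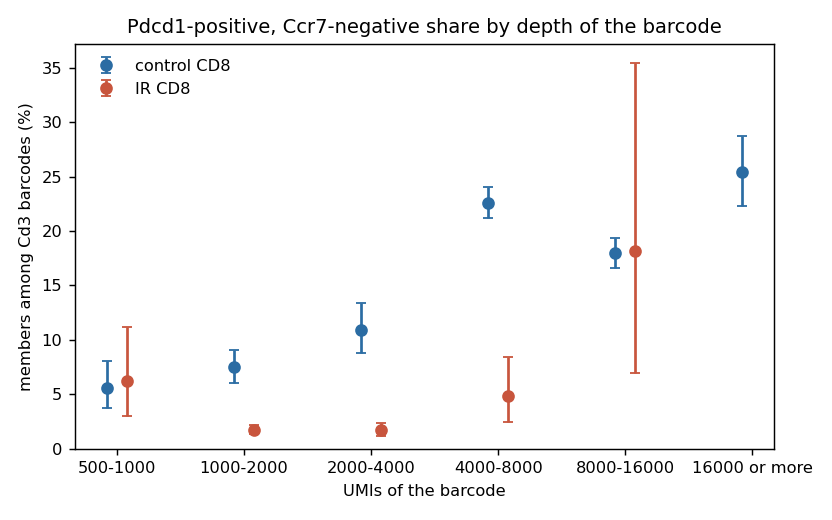
Share of members (%) among Cd3 barcodes by the number of UMIs of the barcode, for control CD8 (blue) and IR CD8 (red), with exact 95% intervals for counting error; bins with under 10 barcodes are not drawn. Between 1000 and 8000 UMIs the control points sit above the IR points, and in the bin of 500 to 1000 UMIs they are at 5.62% and 6.25%.

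In the control library, the coinhibitory receptor genes Tigit, Lag3, Havcr2 and Ctla4 and the factor genes Tox, Tox2 and Maf were at least 2-fold higher in the members than in the other CD8 barcodes. In all, 86 of 8870 assessed genes (0.97%) were at least 2-fold higher and 124 (1.4%) at least 2-fold lower. A gene was assessed at 10 CPM or more in the higher pool with at least 20 UMIs expected in the members. Of 15 coinhibitory receptor genes, 4 were at least 2-fold higher and 0 were 2-fold lower, with a median log2 ratio of 0.58 against -0.02 over all assessed genes. Of 15 exhaustion and activation factors, 14 were assessed, and Tox, Tox2 and Maf were at least 2-fold higher, with a median of 0.59.

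Lag3, an inhibitory receptor that binds MHC class II, had the largest ratio of the coinhibitory receptors. It stood at 71.2 CPM in members and 17.0 CPM in other barcodes, a log2 ratio of 2.06 (1.92 to 2.21). At 1000 UMIs it was found in 5.23% of members, 1.61% of other barcodes and 1.02% (0.0258 to 5.55) of 98 barcodes without a Cd3 UMI, an interval that holds both other shares. Havcr2, which encodes TIM-3, stood at 42.7 and 11.3 CPM, a log2 ratio of 1.93 (1.74 to 2.11). Ctla4, which competes with CD28 for CD80 and CD86, stood at 190 and 75.5 CPM, a log2 ratio of 1.33 (1.26 to 1.41). Tigit followed with 54.1 and 23.8 CPM and a log2 ratio of 1.19 (1.04 to 1.33). These 4 receptors were distinct from Btla at 43.5 and 67.5 CPM and Klrg1 at 11.8 and 16.7 CPM, which were lower in members without reaching 2-fold. Entpd1, the ectoenzyme CD39, reached a log2 ratio of 0.95 (0.87 to 1.03).

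Tox, a factor that maintains exhausted and chronically stimulated CD8 cells, stood at 1084 CPM in members and 493 CPM in other barcodes, a log2 ratio of 1.14 (1.11 to 1.17). It was found in 89.0% of members and 62.1% of other barcodes, and in 50.4% and 26.5% at 1000 UMIs, against 37.8% (28.2 to 48.1) of barcodes without a Cd3 UMI. Its relative Tox2 was rare, with 17.2 and 2.75 CPM, but had a log2 ratio of 2.65 (2.32 to 2.99). Maf, a factor of IL-10 producing and exhausted cells, stood at 123 and 53.3 CPM. Nr4a1, an immediate target of T cell receptor signalling, was at 48.9 and 57.7 CPM and did not reach 2-fold. Of the TCR signalling list, 16 of 18 genes were assessed and 0 were 2-fold higher or lower, a count near the 0.97% and 1.4% over all assessed genes.

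The number of coinhibitory receptors per barcode was counted over 8 receptors other than PD-1. In control, 48.2% (45.8 to 50.6) of members held a UMI of at least 3 of them, against 15.8% (14.9 to 16.8) of other barcodes without Ccr7, 8.91% (7.62 to 10.4) of those with Ccr7 and 2.41% (0.66 to 6.05) of the shallower barcodes without a Cd3 UMI. At 1000 UMIs the shares with none of the 8 were 51.3% (48.9 to 53.8) in members, 66.2% (65.0 to 67.4) in other barcodes without Ccr7 and 88.9% in those with Ccr7. The share in barcodes without a Cd3 UMI was 70.4% (60.3 to 79.2), lower than in Cd3 barcodes with Ccr7. The source of the UMIs in barcodes without a Cd3 UMI was not tested. In IR, 43.5% (34.9 to 52.4) of members and 72.5% (71.0 to 73.9) of other barcodes without Ccr7 held none. At 1000 UMIs these IR shares were 67.8% (58.7 to 76.0) and 82.3% (81.0 to 83.5). The share was 92.4% (91.3 to 93.5) in other IR barcodes with Ccr7 and 92.9% (89.8 to 95.3) in IR barcodes without a Cd3 UMI.

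Members held 0 Ccr7 UMIs by rule while the other barcodes kept those with Ccr7, so a lower level of naive and recirculation genes was partly built in and is given as a description. In each library, 11 of the 12 listed genes were assessed and 10 were at least 2-fold lower in members, beside 1.4% of all assessed genes in control and 7.23% in IR, with a median log2 ratio of -1.88 in control and -2.47 in IR. Against other barcodes with 0 Ccr7 UMIs, 4 of these 10 were still 2-fold lower in control and 8 of 10 in IR, with medians of -0.97 and -1.98. Il7r, the receptor for the survival cytokine IL-7, stood at 107 and 430 CPM in control and at 126 and 727 CPM in IR. Klf2, which drives the egress receptor S1pr1, stood at 258 and 830 CPM in control and at 608 and 3367 CPM in IR. The stem-like and naive factors Tcf7, Lef1, Bach2, Klf3 and Satb1 were each at least 2-fold lower in members of both libraries. Against control barcodes with 0 Ccr7 UMIs, Igfbp4 had a log2 ratio of -2.01, Satb1 -1.63 and Il7r -1.21, while Klf2 had -0.98, Lef1 -0.97, S1pr1 -0.63 and Tcf7 -0.62 and did not reach 2-fold. In control, Lef1 stood at 175 CPM in members and 645 CPM in other barcodes.

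The rule's Ccr7 clause bore on many of these calls. Against other barcodes with 0 Ccr7 UMIs alone, the control library had 46 genes at least 2-fold higher and 32 at least 2-fold lower. Lag3 then had a log2 ratio of 1.79, Havcr2 1.60, Ctla4 1.29 and Tox2 2.71, while Tigit, Maf, Gzmk and Gzmb had 0.96, 0.89, 0.78 and 0.71 and were then below 2-fold. Il7r and Klf2 were found in 32.9% and 52.6% of control barcodes without Ccr7 and Pdcd1 UMIs, above the 20.8% and 45.5% of members.

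**Figure D2:**
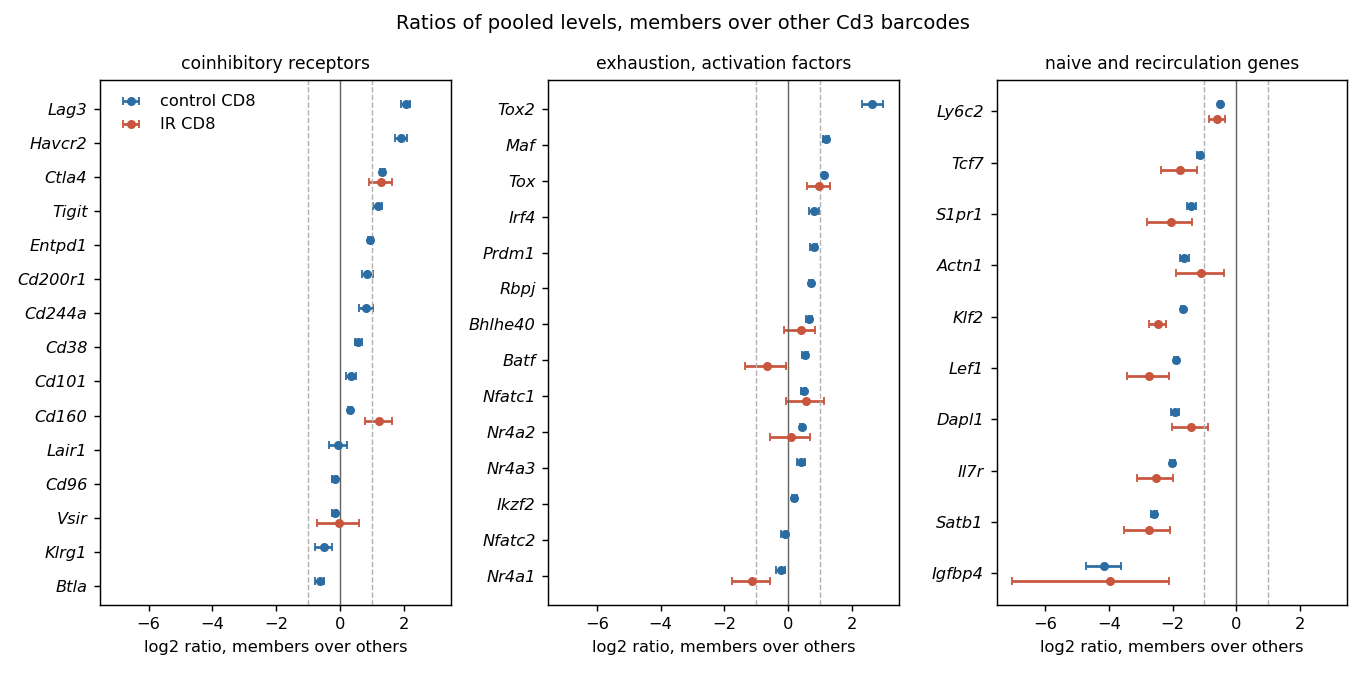
Log2 ratio of pooled CPM, members over other Cd3 barcodes of the same library, for coinhibitory receptors, exhaustion and activation factors, and naive and recirculation genes, with exact 95% intervals for counting error. Control CD8 is blue and IR CD8 red, a gene is drawn only where it was assessed, and dashed lines mark 2-fold. Lag3, Havcr2, Ctla4 and Tigit lie above 2-fold in control, and the naive genes drawn are at least 2-fold lower in each library with 1 exception.

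Levels in control were also set out by the number of Pdcd1 UMIs, which the rule used, so they are given as a description. Lag3 stood at 20.6 CPM in barcodes with 0 Pdcd1 and 0 Ccr7 UMIs, and at 57.2, 63.1 and 103 CPM in members with 1, 2, and 3 or more Pdcd1 UMIs. Tox2 stood at 2.63, 8.51, 17.5 and 33.2 CPM in the same order, and Tox at 517, 908, 959 and 1503 CPM. Havcr2 stood at 14.0, 35.3, 34.1 and 62.8 CPM, and the intervals of members with 1 and with 2 Pdcd1 UMIs overlapped. Ctla4 stood at 77.9, 160, 214 and 229 CPM and Tigit at 27.9, 45.9, 59.9 and 64.9 CPM, and for both genes the intervals with 2 and with 3 or more Pdcd1 UMIs overlapped, as did those of Tigit with 1 and with 2. Il7r stood at 246, 125, 123 and 61.3 CPM. The intervals with 1 and with 2 Pdcd1 UMIs overlapped for Lag3, Tox and Il7r as well. The median depth of these barcodes was 6229, 6811, 7347.5 and 8682 UMIs, so depth increased with the number of Pdcd1 UMIs, and its part in these differences was not tested. Cd101 stood between 34.6 and 42.5 CPM in all 4 and showed no order.

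**Figure D3:**
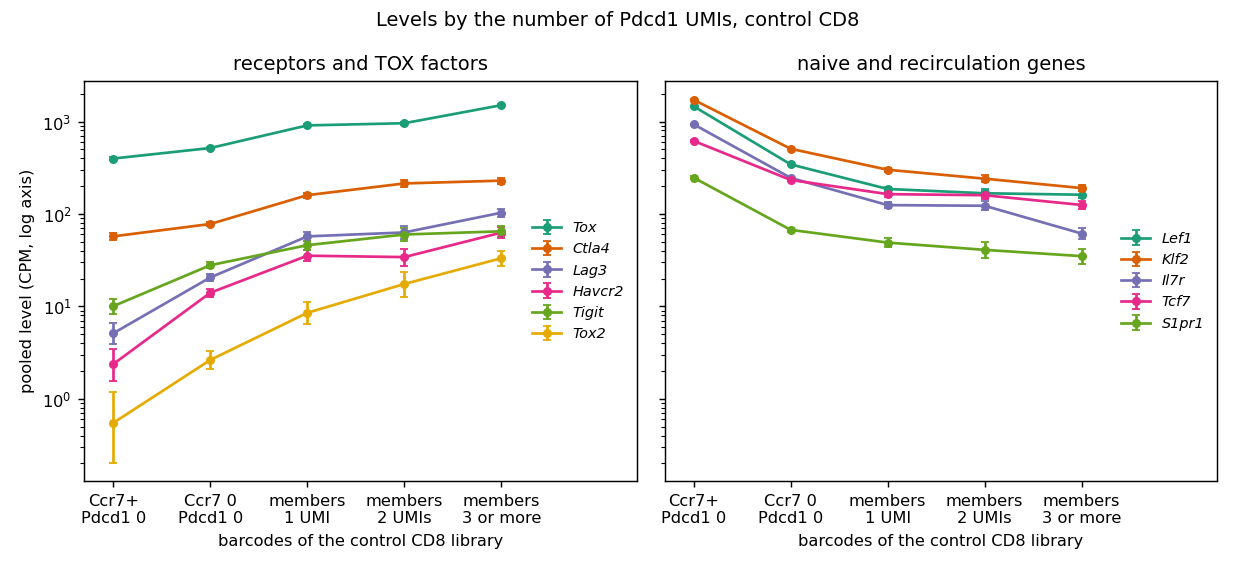
Pooled level (CPM, log axis) of 6 receptor and TOX genes and 5 naive and recirculation genes in the control CD8 library, in barcodes with Ccr7 and no Pdcd1, with neither transcript, and in members with 1, 2, and 3 or more Pdcd1 UMIs; bars are exact 95% Poisson intervals. Lag3 goes from 20.6 CPM with neither transcript to 103 CPM with 3 or more Pdcd1 UMIs, and Il7r from 246 to 61.3 CPM.

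The PD-1 pathway itself was measured next. Of 8 genes for PD-1 ligands and signalling, 7 were assessed in control and 0 were 2-fold higher or lower in members, which is near the 0.97% and 1.4% over all assessed genes, with a median log2 ratio of 0.06. Cd274, the ligand PD-L1, stood at 84.3 CPM in control members and 81.1 CPM in other control barcodes. Ptpn11, the phosphatase SHP2 that docks on PD-1, stood at 82.2 and 58.6 CPM. Neither reached 2-fold.

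Effector and survival genes were mixed. Eomes, a factor of memory and exhausted CD8 cells, stood at 75.8 CPM in control members and 59.4 CPM in other control barcodes. Tbx21, the effector factor T-bet, stood at 251 and 219 CPM. Both were below 2-fold. Bcl2a1d, a survival protein of activated lymphocytes, was at least 2-fold higher with 114 and 54.0 CPM. Bbc3, which encodes the death-promoting PUMA, was at least 2-fold lower with 10.48 and 27.3 CPM. The rank by ratio also placed Setbp1 at 108 and 41.7 CPM and Alcam, an adhesion molecule, at 80.9 and 33.3 CPM among the genes higher in members. St6gal1, a sialyltransferase, stood at 25.3 and 112 CPM and was lower.

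Granzyme genes did not move together. Gzmk, a granzyme of memory and pre-exhausted CD8 cells, stood at 297 CPM in control members and 137 CPM in other control barcodes, a log2 ratio of 1.11 (1.05 to 1.17). It was found in 66.8% of members and 33.4% of other barcodes, and at 1000 UMIs in 21.2% and 10.8%, against 8.16% (3.59 to 15.5) of barcodes without a Cd3 UMI. Gzmb, the classical cytotoxic granzyme, stood at 291 and 139 CPM, a log2 ratio of 1.06 (0.9985 to 1.12). That ratio was 0.80 with the top 5% of barcodes by UMIs removed, 0.67 without cycling barcodes and 0.49 at 1000 UMIs, each below 2-fold. Gzmk had 0.77 at 1000 UMIs. Ratios at that depth applied the rule again to the thinned counts, which left 409 control members. Cd3 barcodes that had lost their Pdcd1 UMI then counted among the others. The shares of barcodes with Gzmk kept the members found before thinning. Gzma stood at 139 CPM in members and 269 CPM in other barcodes, a log2 ratio of -0.95 (-1.03 to -0.88) that did not reach 2-fold. Prf1, the pore-forming perforin, stood at 134 and 118 CPM. Of the 15 cytotoxic granule genes, 14 were assessed, 2 were at least 2-fold higher, beside 0.97% of all assessed genes, and 0 were 2-fold lower. In control members with 1 or more Gzma or Gzmk UMIs, which were 1191 of 1711, Lag3 stood at 75.4 CPM, and in the other 520 at 58.3 CPM.

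Of 17 cytokine and chemokine genes, 10 were assessed in control, and Ccl3, Ccl4 and Ccl1 were at least 2-fold higher in members, beside 0.97% of all assessed genes, while 0 were 2-fold lower. Ccl4, an inflammatory chemokine, stood at 1282 CPM in control members and 492 CPM in other control barcodes, and Ccl3 at 160 and 60.3 CPM. Ccl5 was high in both, at 10939 and 6299 CPM, a log2 ratio of 0.80 (0.79 to 0.81). Ccl5 recruits T cells and monocytes. Ccl1 had a log2 ratio of 3.52, but 64.6% of its UMIs in members came from 1 barcode, and 20 members held it. Rgs16, a regulator of G protein signalling, stood at 64.3 and 13.3 CPM, a log2 ratio of 2.28 (2.12 to 2.43), in 279 members. Ifng, the cytokine of type 1 responses, stood at 376 and 306 CPM and did not reach 2-fold.

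Of 15 tissue residency genes, all 15 were assessed in control, and 1 of them, Litaf, was at least 2-fold higher, with 82.2 and 38.5 CPM, beside 0.97% of all assessed genes. Cxcr6, a chemokine receptor of tissue-resident cells, stood at 867 and 600 CPM in control members and other barcodes, and at 346 and 143 CPM in IR. In IR, 8 residency genes were assessed and 3 were at least 2-fold higher, Cxcr6, Rgs1 and Isg20, with log2 ratios of 1.27, 1.05 and 1.47, beside 4.6% of all assessed genes. Against IR barcodes with 0 Ccr7 UMIs Cxcr6 had 0.80 and Rgs1 0.63, and at 1000 UMIs Isg20 had 0.54. Itgae, the CD103 integrin chain, stood at 16.7 and 31.1 CPM in control, lower in members without reaching 2-fold. Cd69 stood at 525 and 586 CPM. Of the costimulatory receptors, 11 of 12 were assessed in control and 0 were 2-fold higher or lower, again near those shares.

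Of 18 cell cycle genes, 5 were at least 2-fold higher in control members, Ccna2, Ccnb1, Ccnb2, Cdk1 and Birc5, beside 0.97% of all assessed genes. The median log2 ratio of the 18 was 0.86 and the lowest was 0.19. A Mki67 or Top2a UMI was found in 616 of 1711 control members and in 1715 of 7974 other barcodes. With the top 5% of barcodes by UMIs removed, the log2 ratio of Birc5 went from 1.12 to -0.13, that of Ccnb1 from 1.23 to -0.09 and that of Cdk1 from 1.04 to 0.25 in control. In IR, 7 cell cycle genes were assessed and 5 were at least 2-fold higher, Top2a, Mcm6, Birc5, Stmn1 and Hmgb2, beside 4.6% of all assessed genes, with a median log2 ratio of 1.44. With the top 5% removed, Top2a went from 2.32 to 1.43, Stmn1 from 2.07 to 0.10, Hmgb2 from 1.44 to 0.30 and Mcm6 from 1.06 to 0.27, and Birc5 kept only 2 of its 42 UMIs in IR members. Of the members, 142 in control and 19 in IR were among that top 5%. In control, Lag3, Havcr2, Ctla4 and Tox2 had log2 ratios of 2.15, 1.90, 1.51 and 2.68 without those barcodes. Without cycling barcodes they had 2.31, 2.20, 1.62 and 2.62.

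Markers of other cells were measured beside these results. The myeloid list held 935 UMIs in control members, of which 369 came from 1 barcode, and its summed level was 77.1 CPM in members and 45.4 CPM in other barcodes. Cd74 and H2-Eb1, MHC class II genes that were at least 2-fold higher in control members, had 54.2% and 55.7% of their UMIs in a single barcode. Of the 7 genes of the gamma delta list, 2 were assessed and both, Trgv2 and Tcrg-C2, were at least 2-fold higher, beside 0.97% of all assessed genes, with 23.7 and 27.6 CPM in members, and the list summed to 67.3 CPM in members and 31.7 CPM in other barcodes. Gamma chain transcripts occur in αβ T cells too. Tubule markers summed to 2.72 CPM in control members and 0 in IR members. The part of these other transcripts in the differences above was not tested.

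The T cell receptor segments gave a second difference between members and other barcodes. Trbv3 encodes a variable segment of the receptor β chain, on chromosome 6 at chr6:41048290-41048828 on the plus strand of GRCm38, and each αβ T cell expresses 1 productive β chain chosen by recombination. Because the libraries used 3′ chemistry, a variable segment was seen in part of the cells only: 734 of 1711 control members and 2519 of 7974 other control barcodes held any Trbv UMI. The germline ends of the 3 segments that lead the comparison are shown because they carry the start of the antigen-contacting loop. The last 150 bases of each GENCODE M21 transcript are printed, with capitals from the cysteine codon that opens the loop to the end of the segment.
Trbv3: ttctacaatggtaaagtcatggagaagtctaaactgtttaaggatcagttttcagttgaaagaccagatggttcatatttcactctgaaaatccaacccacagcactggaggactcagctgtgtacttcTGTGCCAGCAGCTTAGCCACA
Trav4-4-dv10: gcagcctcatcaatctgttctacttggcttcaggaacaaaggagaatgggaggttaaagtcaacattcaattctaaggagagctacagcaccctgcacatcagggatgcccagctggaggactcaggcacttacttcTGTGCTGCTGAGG
Trav6-7-dv9: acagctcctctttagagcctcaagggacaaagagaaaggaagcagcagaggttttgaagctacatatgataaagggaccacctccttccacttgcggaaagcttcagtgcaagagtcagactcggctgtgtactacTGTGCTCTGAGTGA
Of the 425 stretches of 31 bases in the Trbv3 transcript, 0 occurred in the transcript of another gene. Of those in Trav4-4-dv10, 68.0% did, most of them in Trav4d-4, and in Trav6-7-dv9 67.6% did, so that reads of these α segments cannot be assigned to a single copy with certainty.

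Trbv3 was in 21.3% (19.4 to 23.4) of control members and 5.88% (5.38 to 6.42) of other control barcodes. How many mice each library holds is not known here, so a segment share may come from 1 animal or from several. Among barcodes with any Trbv UMI the shares were 49.7% (46.0 to 53.4) and 18.6% (17.1 to 20.2), and in other barcodes without Ccr7 the share was 21.7% (19.8 to 23.7). Trbv12-2, the most frequent segment in the other barcodes, was in 13.5% (11.1 to 16.2) of control members and 18.7% (17.2 to 20.3) of other barcodes with a Trbv UMI. In IR, Trbv3 was in 11 of 33 members with a Trbv UMI, or 33.3% (18.0 to 51.8), and in 10.1% (8.20 to 12.3) of 869 other barcodes. The interval of the IR members was wide but did not overlap that of the other IR barcodes.

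**Figure D4:**
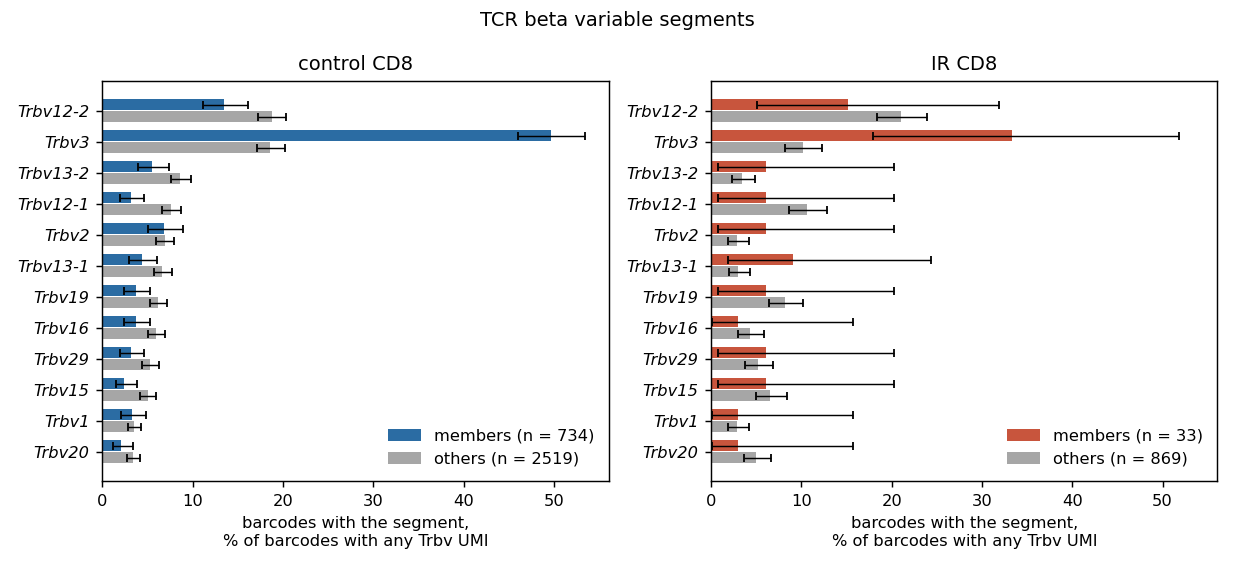
Share of barcodes with each of 12 TCR β variable segments, as a percent of barcodes with any Trbv UMI, in members (coloured) and other Cd3 barcodes (grey) of the control and IR CD8 libraries, with exact 95% intervals. Trbv3 is at 49.7% and 18.6% in control and at 33.3% and 10.1% in IR.

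Turned round, members were 43.8% (40.4 to 47.2) of the 834 control barcodes with Trbv3. They were 15.3% (13.8 to 16.8) of the 2419 control barcodes with another Trbv segment alone. Of the 6432 control barcodes with no Trbv UMI, members were 15.2% (14.3 to 16.1). Median depth was 7711 UMIs with Trbv3, 9021 with another segment and 6035.5 with none, and its part in these shares was not tested. At 1000 UMIs the shares were 13.5% (8.22 to 20.5) of 133 and 2.96% (1.49 to 5.24) of 371 barcodes. In IR, members were 11.1% (5.68 to 19.0) of 99 barcodes with Trbv3 and 2.74% (1.72 to 4.12) of 803 with another segment, and at 1000 UMIs they were 1 of 43 and 5 of 400, with overlapping intervals. In the control CD4 library by the same rule, 14.8% (9.81 to 21.1) of barcodes with Trbv3 and 12.9% (11.6 to 14.4) of those with another segment were positive, and the intervals overlapped. In control DN the shares were 5.88% (1.63 to 14.4) and 11.4% (10.4 to 12.4). In IR CD4 they were 9.09% (4.45 to 16.1) of 110 and 3.88% (2.97 to 4.98) of 1519 barcodes, again with overlapping intervals, and in IR DN 0 of 11 and 16 of 428.

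The α segments of the Trbv3 members were mixed. Of 365 control members with Trbv3, 170 held a Trav UMI and 43 different Trav segments were seen. Trav4-4-dv10 was in 48 of the 170, Trav6-7-dv9 in 47 and Trav7-6 in 24, which was 28.2%, 27.6% and 14.1%. Other control barcodes with Trbv3 had shares of 18.5%, 24.2% and 12.4% over 178 barcodes, and members without Trbv3 had 15.1%, 11.5% and 7.57% over 489. In all control members with a Trav UMI, Trav4-4-dv10 was in 18.5% (15.6 to 21.7) and in other control barcodes in 7.59% (6.53 to 8.76). For Trav6-7-dv9 the shares were 15.6% (12.9 to 18.6) and 8.30% (7.19 to 9.52). In IR 16 members held a Trav UMI, too few to compare segments.

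Receptor levels were then split by Trbv3, a split chosen after the segment shares were seen. In control, Tox stood at 1334 CPM in members with Trbv3 and 879 CPM in members with another Trbv segment, Lag3 at 87.1 and 49.9 CPM, and Tox2 at 32.1 and 12.8 CPM. Among other barcodes, which had no Pdcd1 UMI or had a Ccr7 UMI, Tox stood at 856 CPM with Trbv3 and 436 CPM with another segment, and Maf at 128 and 35.9 CPM. With all Trbv3 barcodes left out, a setting chosen after the values were seen, Lag3 had a log2 ratio of 2.05, Havcr2 1.94, Ctla4 1.26, Tigit 1.20, Tox2 2.36, Tox 1.10 and Maf 1.24 in control. Of 62 named genes called in control, 52 were still 2-fold at that setting, and Trbv3 itself was among the other 10.

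Fewer genes could be assessed in IR than in control, 2281 against 8870. Of the 2281, 105 (4.6%) were at least 2-fold higher and 165 (7.23%) at least 2-fold lower. Ctla4 stood at 327 CPM in members and 134 CPM in other barcodes, a log2 ratio of 1.29 (0.92 to 1.64) that was 0.71 at 1000 UMIs, with 9 UMIs in the 67 members that kept a Pdcd1 UMI. Cd160 stood at 229 and 97.6 CPM. Tox stood at 323 and 166 CPM, a log2 ratio of 0.95 (0.58 to 1.31). Of the 15 exhaustion and activation factors, 6 were assessed in IR, with a median log2 ratio of 0.24. None was at least 2-fold higher, and 1, Nr4a1, was at least 2-fold lower with a log2 ratio of -1.13, beside 7.23% of all assessed genes. Lag3 had 8 UMIs and Havcr2 had 3 in IR members, and Tox2 had 0, for which the floor of 3 UMIs was 14.0 CPM. Of the 15 coinhibitory receptors, 3 were measurable in IR.

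Gzmb stood at 893 CPM in IR members and 265 CPM in other IR barcodes, Xcl1 at 692 and 218 CPM, and Cxcr3 at 229 and 76.5 CPM. Xcl1 is a chemokine for cross-presenting dendritic cells, and Cxcr3 a receptor for interferon-induced chemokines. A further setting took the largest barcode of every gene out of that gene's sum, and the totals shrank with it. Xcl1 then had a log2 ratio of 0.91 and Cxcr3 1.64 on the reduced totals. Without the 16 cycling IR members and the 242 cycling other barcodes, Gzmb went from 1.75 to 1.01, with the top 5% of barcodes removed to 0.69, and at 1000 UMIs, with 10 UMIs in members, to 0.0124. Dqx1 and Gm13842, at log2 ratios of 4.74 and 3.90, each came from 1 member, and 94.1% of Dnmbp UMIs came from 1 of 2 members. Hbb-bs was lower in members at 9.35 and 270 CPM, and 1 other barcode held most of its UMIs.

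The 2 libraries could be set side by side for 2264 genes assessed in both. Of these, 16 were at least 2-fold higher in members of both, where 0.97% of all assessed genes were higher in control and 4.6% in IR. The 16 were 80.0% of the 20 called in control and 15.5% of the 103 called in IR. They included Ctla4, Gzmk, Gzmb, Ccl3, Bcl2a1d, S100a4, S100a6, Serpina3g, Ier5l, 1500009L16Rik and the cell cycle genes Birc5, Ube2c, Pclaf, Hist1h1b and Hist1h2ae. Several of these shared calls did not hold at other settings. Against others with 0 Ccr7 UMIs, 5 of the 16 were still 2-fold in both libraries, Ctla4, Ier5l, 1500009L16Rik, Birc5 and Pclaf. Gzmk then had 0.78 in control and 0.63 in IR, Gzmb 0.71 in control and Ccl3 0.51 in IR. With the top 5% of barcodes removed, the control log2 ratios were -0.13 for Birc5, -0.31 for Ube2c, -0.13 for Pclaf, -0.28 for Hist1h1b and -0.32 for Hist1h2ae. In IR, members held only 3 Ccl3 UMIs at 1000 UMIs, and the 14 members with 2 or more Pdcd1 UMIs held 2 of Gzmk and 1 of Ier5l, so those settings could not place these genes. For 1500009L16Rik, 52.2% of the UMIs in IR members came from 1 barcode. In the lower direction 27 were shared, 96.4% of 28 in control and 16.7% of 162 in IR. Over all assessed genes, 1.4% were lower in control and 7.23% in IR. Of the 27, 8 were still 2-fold in both libraries against others with 0 Ccr7 UMIs. The 27 shared genes included Il7r, Klf2, S1pr1, Lef1, Tcf7, Igfbp4, Ifngr2, Cmah and Foxp1. Cmah, which makes the sialic acid Neu5Gc, stood at 37.9 and 210 CPM in control and 32.7 and 205 CPM in IR. No gene was called in opposite directions.

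IR members were then set beside control members. Of 2776 genes assessed, IR members had 254 genes (9.15%) past 2-fold in the higher and 771 (27.8%) in the lower direction, and the same comparison of the other barcodes gave 660 (7.22%) and 1584 (17.3%) of 9138 genes. The median log2 ratio over all genes was -0.36 in members and -0.39 in other barcodes. The lncRNA Gm50306 had a log2 ratio of 8.51 in members and 8.55 in other barcodes, and Nkain2 6.32 and 6.44, so these were shared by the whole CD8 libraries. Hspa1b, an inducible HSP70, had a log2 ratio of -3.41 in members and -3.88 in other barcodes, and 7 of 12 heat shock genes were at least 2-fold lower in IR members, against 6 of 12 in other barcodes.

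Within the members, Gzma was higher in IR with 1047 CPM against 139 CPM in control, a log2 ratio of 2.91 (2.71 to 3.12), and in the other barcodes its log2 ratio was 1.37. Klf2 had a log2 ratio of 1.24 (0.97 to 1.49) in members and 2.02 in other barcodes. Tox had a log2 ratio of -1.75 (-2.11 to -1.41) in members and -1.57 in other barcodes. Prf1 had -2.51 and -1.73, and Cxcr6 -1.33 and -2.07. Ctla4 had 0.78 and 0.83, Gzmk -0.23 and -0.32, and Xcl1 0.18 and -0.61, none of them 2-fold. Differences of members from other barcodes in the size of the IR effect were not tested.

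By the same rule, PD-1 positive barcodes of the control CD4 and DN libraries were compared with their own other barcodes. Of the 65 genes higher in control CD8 members and assessed in DN, 49 were also at least 2-fold higher in DN, 75.4% of the CD8 calls and 25.3% of the 194 DN calls, where 2.27% of the 8557 genes assessed in both were higher in DN. For CD4 it was 46, 70.8% of the 65 CD8 calls and 38.3% of the 120 CD4 calls, where 1.4% of 8586 genes were higher in CD4. Lag3 had log2 ratios of 2.06 in CD8, 3.22 in CD4 and 3.84 in DN, and Tox2 had 2.65, 3.001 and 3.95. Entpd1 had 0.95, 0.35 and 0.32. Cd101 had 0.35, 0.61 and -0.20 and did not reach 2-fold in any of them. Of genes lower in members, 12 were shared with DN, 13.3% of 90 CD8 calls and 44.4% of 27 DN calls, and 28 with CD4, 29.8% of 94 and 70.0% of 40, where 0.316% of genes were lower in DN and 0.466% in CD4.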

How the data were processed

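The authors deposited raw UMI counts, obtained from 3′ droplet libraries by alignment to mm10 in Cell Ranger. The submitters' notes name version 6.0.1, and the file headers name 5.0.1 for control and 6.0.1 for IR. The members, gene lists and rules were chosen with earlier results of these data known.

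Mitochondrial, ribosomal protein and Malat1 features (100 of 32285) were left out of totals. Counts were summed over barcodes and scaled to CPM, with exact 95% Poisson intervals for levels, exact conditional intervals for ratios and exact Clopper-Pearson intervals for shares. No test was run, since each group had 1 library. A count of 0 was set to 3 in ratios, and a share of 0 allows 3 counts. Genes were called at 2-fold. Pdcd1, Ccr7, Cd3d, Cd3e and Cd3g were left out of counts of calls. No doublet caller was run, and removing the top 5% of barcodes by UMIs was an alternative. Thinning to 1000 UMIs was random without replacement. Log2 ratios, counts of calls and member shares at that depth applied the rule again to the thinned counts. Shares of barcodes with a named gene, and numbers of receptors, kept the members found before thinning.

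The named genes were the label markers, the sort genes, 30 gene lists (346 genes), the 10 largest ratios per direction and library at 50 CPM or more, the 10 shared by both libraries, and the 5 largest between IR and control members. A few genes are not reported here. Other genes named were chosen after their values were seen. TMM factors came from edgeR. Coordinates and sequences came from GENCODE M21 (GRCm38), where 32235 features matched by identifier. The counting rules were checked on simulated counts.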

Additional observations from a re-analysis of the deposited data

How the results depend on the processing

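No paired analysis was possible because each group had 1 library, and no library could be left out. Settings are given as genes at least 2-fold higher and lower in control members, IR members and IR against control members. With the top 5% of barcodes removed, IR members had 58 and 72, and IR against control 392 lower. Log2 ratios turned to -0.13 for Birc5, -0.79 for Ccna2, -0.0941 for Ccnb1, -0.12 for Ccnb2, -0.28 for Hist1h1b, -0.32 for Hist1h2ae, -0.13 for Pclaf and -0.31 for Ube2c in control, and -0.59 for Hist1h2ae in IR. Against others with 0 Ccr7 UMIs the counts were 46 and 32 in control and 68 and 94 in IR, and Hbb-bs in IR turned to 0.68. With 2 or more Pdcd1 UMIs the shares were 7.36% and 0.218%, with 190 higher in control, 48 and 39 in IR, and 101 and 58 in IR against control, and in IR Gzmk gave -0.76 on 2 UMIs in members and Ier5l -0.0908 on 1, too few to place either, and Rgs1 turned to -0.12. With others weighted to the depth of members, 50 were higher in control and 58 in IR. Thinned to 1000 UMIs, the shares were 4.86% and 1.19%, with 30 and 37 in control, 10 and 16 in IR, and 118 and 79 in IR against control. Birc5 then turned to -1.09, Ccna2 to -0.60, Ccnb1 to -0.0122, Ccnb2 to -2.10 and Hist1h2ae to -1.68 in control, and Bak1 to -0.50, Ccl3 to -0.48, Cxcr4 to 0.0014 and Hist1h2ae to -0.65 in IR. Thinned to 500 UMIs, the shares were 2.99% and 0.815%. With no minimum level the counts were 658 and 1252, 1534 and 1262, and 1586 and 2504, and at a minimum of 50 CPM 34 and 40 in control. Without cycling barcodes the control share was 14.9%, IR members had 58 and 83, and IR against control 476 lower. Birc5 turned to -0.49, Ccna2 to -0.91, Ccnb2 to -0.72, Hist1h2ae to -0.0890 and Pclaf to -0.30 in control, and Hist1h2ae to -1.11 and Stmn1 to -0.82 in IR. The control share was 19.1% without the Ccr7 clause and 15.2% without Trbv3 barcodes. The Trbv3 setting and leaving out the largest barcode of each gene were chosen after seeing the data. The causes were not tested. Of the 29 ratios that changed sign, 12 rested on 3 or fewer UMIs in members. Of 62 named genes called in control, 33 were still 2-fold against others with 0 Ccr7 UMIs, 38 when thinned to 1000 UMIs and 52 with the top 5% removed, and of 67 in IR 48, 30 and 50 were.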
